A study of Mus musculus with 5 samples.

Results

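The translation initiation factor genes of the mouse, with the eIF2 kinases, were taken as every protein-coding RefSeq gene whose symbol begins with Eif and a digit, which gave 56 of the 21883 coding genes annotated on chromosomes 1 to 19 and the sex chromosomes. The rule uses symbols alone, but the family was proposed with earlier results of these data known. Their H3K36me3, the trimethylation of lysine 36 of histone H3, was read from lists of broad peaks called in mTEClo, medullary thymic epithelial cells that carry little CD80 on their surface. The cells were sorted by EpCAM, UEA-1, Ly51 and CD80 from thymi of wild-type B6 mice, with 50000 cells per immunoprecipitation by the labels, and neither age nor sex of the mice is given in the labels used here. The samples numbered 5: a ChIP library each for series 1 and series 2, and 3 inputs that saw no antibody, all of the same genotype, strain and cell sort.

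Series 1 was called against 2 input libraries together and series 2 against 1, so the lists were not normalized to each other. They held 7231 and 10243 peaks, with median widths of 483 and 222 bp. Which mice went into which library is not labelled, and the spread between the series may be technical as well as biological. With 1 ChIP library per series, no difference between the series or between gene groups was tested. No read counts accompany the lists. Depth is therefore unknown, and absence of a peak means only that none was called at that depth. Chromatin was taken from cells in bulk, and weak marking of all cells cannot be told apart from marking of part of them. Of 12 marker genes of medullary epithelium, each series hit 4 (33.3%), against 16.3% of all protein-coding genes in series 1 and 19.5% in series 2, with the basal keratin gene Krt5 hit in both and Epcam and Krt14 in neither. In at least 1 series, 5 of the 12 epithelial markers were hit (41.7%), as were 3 of 6 myeloid, 1 of 6 fibroblast, 1 of 6 endothelial and 0 of 12 thymocyte markers, against 27.4% of all.

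Initiation factors bring the small ribosomal subunit and the initiator tRNA to the start codon of an mRNA. eIF4F binds the cap and unwinds the leader, eIF3 holds the assembly on the small subunit, eIF1 and eIF1A govern scanning, eIF2 delivers the initiator tRNA with GTP, and eIF2B reloads eIF2 with GTP. eIF5 and eIF5B complete GTP hydrolysis and subunit joining. The eIF2 kinases phosphorylate the alpha subunit of eIF2 under stress, which slows most initiation. H3K36me3 is laid down by Setd2 behind elongating RNA polymerase II and marks the bodies of transcribed genes.

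Initiation factor genes carried H3K36me3 peaks in both libraries. A gene counted as hit when at least 1 bp of a peak lay between its annotated ends. In series 1, 17 of the 56 genes (30.4%) were hit, against 16.3% of all protein-coding genes. In series 2, 21 genes (37.5%) were hit, against 19.5% of all. Both series hit 11 genes (19.6%), against 8.42% of all, and 27 genes (48.2%) were hit in at least 1 series, against 27.4% of all. Once peaks scoring under 20 on the authors' scale were left out, however, 2 members (3.57%) were hit in both, against 3.30% of all. The excess in both series was thus seen only with peaks scoring under 20 included. That cut was unequal between the lists, since it kept 55.8% of all series 1 peaks and 35.7% of all series 2 peaks. The 27 genes divide into those 11, 6 hit in series 1 alone and 10 hit in series 2 alone, and 29 members had no peak. Over the summed 1506 kb of the family, peaks covered 1.04% of bases in series 1 and 1.06% in series 2, against 0.315% and 0.224% of the bases of all protein-coding genes. These shares were not matched for length, and long genes weigh more in such sums. In members of 40 kb and over the shares were 0.880% and 0.409%. The same shares were not computed for all protein-coding genes of that length, so these values have no matched background. The median share of a gene under peaks was 0 in both series for the family and for all protein-coding genes alike.

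**Figure D1:**
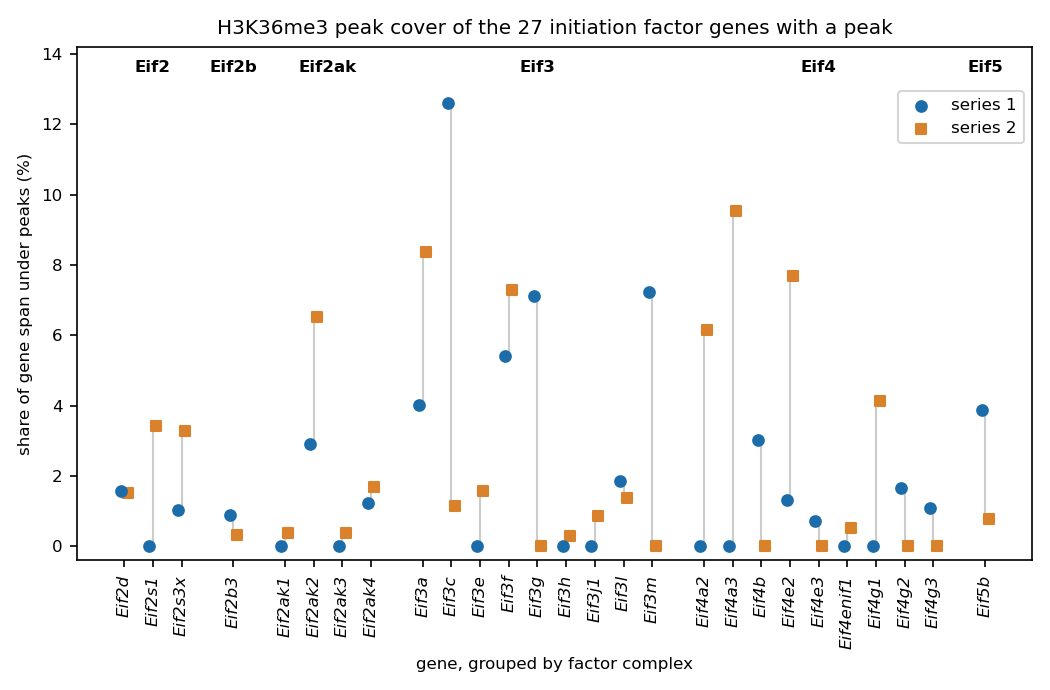
Share of each gene's annotated span under H3K36me3 peaks (y axis, percent) in series 1 (blue circles) and series 2 (orange squares), for the 27 initiation factor genes with a peak, grouped by factor complex (x axis). Each point is 1 library, a grey line joins the points of a gene, and the highest point is Eif3c in series 1 at 12.6%.

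Peaks were called far more often in long genes, so the counts were also set beside genes of like length. The members had a median length of 18.5 kb and all protein-coding genes one of 17.2 kb. Among the 18 members under 10 kb, 1 was hit in both series (5.56%), against 0.391% of all genes of that length. Of the 13 members of 10 to 20 kb, 2 were hit in both (15.4%), against 2.78% of all. Of 16 members of 20 to 40 kb, 5 were hit in both (31.2%), against 7.81%, and of 9 members of 40 kb and over 3 were hit in both (33.3%), against 23.1%. The family's share was thus above that of all genes in each of the 4 length classes, with the smallest ratio among the longest genes. In each single series, too, the family's share was the higher in every class, as in series 1, where 2 of 18 members under 10 kb were hit (11.1%), against 1.78% of all. All 9 members of 40 kb and over had a peak in at least 1 series, against 59.5% of all such genes.

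**Figure D2:**
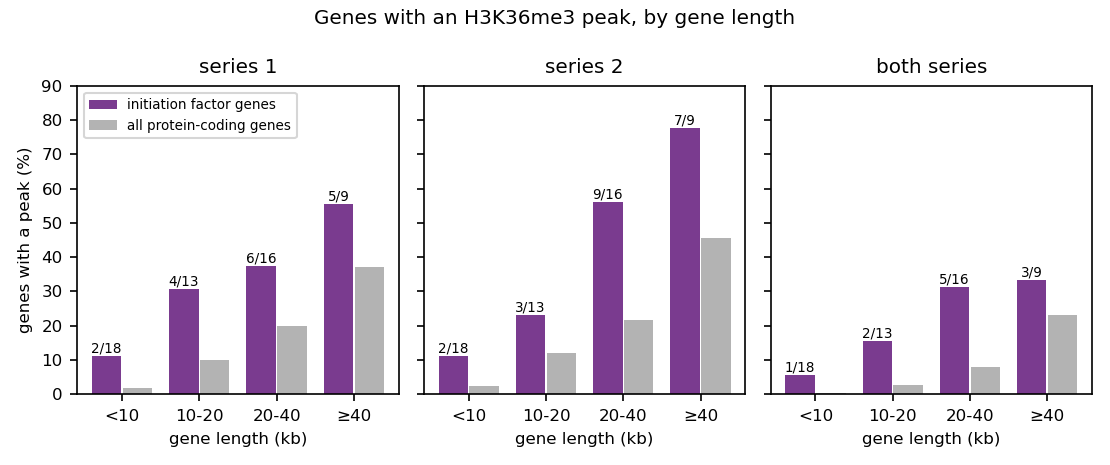
Share of genes with at least 1 bp of an H3K36me3 peak (y axis, percent) in 4 classes of gene length (x axis, kb), for initiation factor genes (purple, with counts above the bars) and all protein-coding genes (grey), in series 1, series 2 and both. Purple bars stand above grey bars in every class, and both rise with length.

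No peak was called at an annotated start that could be examined. RefSeq start windows, which run from 250 bases before to 50 bases after an annotated start on GRCm38.p6, were matched for 44 members and comprised 57 windows, some genes having several starts. None of the 57 windows held a peak in series 1 or in series 2, and of 21262 windows of all protein-coding genes 0.0517% and 0.0658% did, so peaks at starts were rare in all genes. The starts of the other 12 members were not examined, among them Eif4g2 and Eif3h, whose peaks were centred 0.130 and 0.394 kb from an end of the gene whose orientation was not matched. The windows printed here are those of the 3 Eif3 genes and the kinase gene with the highest mean cover over both series, since the peaks of those genes are described in most detail. Each is written 5′ to 3′ on the gene's own strand, and capitals mark matches on either strand to any of 8 motifs.
Eif3f (chr7:108934165-108934464, plus strand): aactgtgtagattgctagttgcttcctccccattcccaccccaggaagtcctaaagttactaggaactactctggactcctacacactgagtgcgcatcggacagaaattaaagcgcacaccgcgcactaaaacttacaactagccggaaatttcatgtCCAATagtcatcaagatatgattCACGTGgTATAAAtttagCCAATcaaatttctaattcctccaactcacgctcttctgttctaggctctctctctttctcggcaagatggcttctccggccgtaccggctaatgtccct
Eif3c (chr7:126566317-126566616, minus strand): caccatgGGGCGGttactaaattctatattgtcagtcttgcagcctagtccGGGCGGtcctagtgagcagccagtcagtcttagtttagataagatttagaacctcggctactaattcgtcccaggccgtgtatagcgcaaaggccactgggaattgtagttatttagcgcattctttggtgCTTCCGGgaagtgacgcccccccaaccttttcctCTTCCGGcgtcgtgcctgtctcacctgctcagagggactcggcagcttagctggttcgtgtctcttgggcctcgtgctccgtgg
Eif3a (chr19:60790644-60790943, minus strand): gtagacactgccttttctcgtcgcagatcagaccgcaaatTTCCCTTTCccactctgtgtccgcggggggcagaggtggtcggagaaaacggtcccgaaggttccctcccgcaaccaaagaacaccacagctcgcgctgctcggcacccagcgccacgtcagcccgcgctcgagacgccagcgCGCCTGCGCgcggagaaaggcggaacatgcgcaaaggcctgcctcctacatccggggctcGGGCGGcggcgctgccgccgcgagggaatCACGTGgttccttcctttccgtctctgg
Eif2ak2 (chr17:78882523-78882822, minus strand): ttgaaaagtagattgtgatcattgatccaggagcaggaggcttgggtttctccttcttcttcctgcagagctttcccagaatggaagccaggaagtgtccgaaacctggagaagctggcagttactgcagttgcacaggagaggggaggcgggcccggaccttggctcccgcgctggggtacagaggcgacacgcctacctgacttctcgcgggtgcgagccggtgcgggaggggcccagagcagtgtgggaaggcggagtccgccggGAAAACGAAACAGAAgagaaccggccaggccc

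The motifs searched were the CCAAT box (CCAAT), the TATA box (TATAAA), the GC box (GGGCGG), an ETS site (CCGGAAG), the E-box (CACGTG), the cyclic AMP response element (TGACGTCA), an NRF1 site (GCGCANGCG) and the core of the interferon-stimulated response element (GAAANNGAA). No motif contains another, although neighbouring matches may overlap. A match describes letters and shows no binding. The Eif3f window has a run of matches that begins with a CCAAT box 91 bases before the start and holds an E-box, a TATA box and another CCAAT box at 68, 61 and 50 bases before it. Eif3c has an ETS site on the opposite strand at 68 and 34 bases before the start. The only matches of Eif2ak2 are to the interferon element core, overlapping each other at 18 and 24 bases after the start, and this gene is known for its induction by interferon. Windows of the family were richer in G and C than those of all protein-coding genes, with medians of 62.0% and 56.3%. The GC box was found in 40 of 57 family windows (70.2%), against 46.2% of all windows, the ETS site in 19 (33.3%), against 11.6%, the E-box in 12 (21.1%), against 7.84%, and the NRF1 site in 13 (22.8%), against 8.58%. The interferon element core was found in 4 (7.02%), against 8.14%. The CCAAT box was found in 28.1% of family windows and 38.2% of all windows, the TATA box in 7.02% and 12.6%, and the cyclic AMP element in none of the family's and 2.23% of all. Several windows of 1 gene overlap, so these shares are not over independent sequences.

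The Eif3 genes, which encode the subunits of the largest initiation factor, held the 3 members with the highest mean cover over both series, although in series 2 alone Eif4a3 was the best covered. Of 14 genes, series 1 hit 6 (42.9%), series 2 hit 7 and both hit 4 (28.6%), against 16.3%, 19.5% and 8.42% of all protein-coding genes, and 9 were hit in either (64.3%), against 27.4%. Their median length was 18.3 kb. Eif3c, a core subunit of the scaffold on chromosome 7 from 126546911 to 126566366 (mm10), had 3 peaks over 12.6% of its span in series 1 and 1 peak over 1.14% in series 2, a mean of 6.88% ± 8.12 (SD, n = 2). It was the only member with at least 10% of its span covered in either list, a level that 115 protein-coding genes reached in series 1 and 51 in series 2. The SD exceeded the mean, with nearly all of the cover in series 1.

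Eif3f, whose start window is shown above, was the member with the most bases under peaks of both series. It encodes a subunit with an MPN domain and lies on chromosome 7 from 108934415 to 108941942. Its peak in series 1 covered 408 bp (5.42% of the span, score 17), and that of series 2 covered 548 bp (7.28%, score 32), a mean of 6.35% ± 1.32 (SD, n = 2). The series 1 peak lay wholly inside the series 2 peak, with midpoints at 83.6% and 83.9% of the way from the 5′ to the 3′ end.

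Eif3a, the largest subunit, on chromosome 19 from 60761116 to 60790693, had 3 peaks over 4.01% in series 1 and 2 peaks over 8.37% in series 2, a mean of 6.19% ± 3.09 (SD, n = 2). One of its series 2 peaks was 2177 bp wide, wider than 99.9% of that list, with a score of only 14. No base was shared between the series, and the smallest gap between their peaks was 2.09 kb. Eif3l, on chromosome 15 from 79075223 to 79094400, had 1 peak in each series, over 1.85% and 1.37%.

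Other Eif3 genes were hit in 1 series. Eif3g, an RNA-binding subunit only 4.24 kb long on chromosome 9, had 7.12% of its span under a single series 1 peak with a score of 35. Eif3m had 7.22% under a series 1 peak of 1255 bp. Eif3e, Eif3h and Eif3j1 had 1 peak each in series 2, over 1.58%, 0.295% and 0.862% of their spans. Eif3b, Eif3d, Eif3i, Eif3k and Eif3j2 had none. Eif3j1 and Eif3j2 are close copies of each other, and the handling of reads that map to more than 1 place is not given in the sources used here, so their assignment is uncertain, as it is for Eif4a3 with Eif4a3l1 and Eif2s3x with Eif2s3y.

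All 4 eIF2 kinase genes had a peak in series 2 and 2 of them also in series 1. They are long, with a median of 72.8 kb, and 45.5% of all protein-coding genes of 40 kb and over had a peak in series 2. Eif2ak2, which encodes PKR, the kinase activated by double-stranded RNA, lies on chromosome 17 from 78850504 to 78882572. It had 1 peak of 934 bp in series 1 (2.91% of the span, score 33) and 3 peaks in series 2 (6.52%, scores 12, 16 and 12), a mean of 4.72% ± 2.55 (SD, n = 2). By share of the span covered, Eif2ak2 stood above the other kinase genes in both series, but at 32.1 kb it is the shortest of the 4. In bases under peaks, Eif2ak4 was higher in series 1, with 1060 against 934 bp. The Eif2ak2 peaks of the 2 series lay at different places, 1.99 kb apart at the closest.

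Eif2ak4, which encodes GCN2, the sensor of amino acid shortage, had 1 peak over 1.22% of its span in series 1 and 3 over 1.68% in series 2, a mean of 1.45% ± 0.324 (SD, n = 2). The shares were close but the places were not: the series 1 peak lay 78.4 kb from the 5′ end of the gene, and the series 2 peaks at 10.5, 12.6 and 34.5 kb. Eif2ak1, encoding the heme-regulated kinase HRI, and Eif2ak3, encoding PERK, the kinase of endoplasmic reticulum stress, had no peak in series 1 and 1 each in series 2, over 0.382% and 0.377% with scores of 17 and 21.

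The substrate of the kinases, eIF2 alpha, is encoded by Eif2s1, which had no peak in series 1 and 1 of 856 bp in series 2 over 3.43% of its span on chromosome 12. Of the 6 Eif2 genes outside the kinases and Eif2b, 2 had a peak in both series (33.3%), against 8.42% of all protein-coding genes. These 6 were grouped by symbol alone and not by complex, and Eif2a among them is not the gene of eIF2 alpha. The median length of the 6 was 28.3 kb, and 7.81% of all protein-coding genes of 20 to 40 kb were hit in both. Eif2s3x, the X-linked gamma subunit, had 1.04% and 3.28% of its span covered in series 1 and 2, a mean of 2.16% ± 1.58 (SD, n = 2). Eif2d, which encodes a factor that can deliver tRNA without GTP, had 1.57% and 1.51%, a mean of 1.54% ± 0.0431 (SD, n = 2), the smallest SD among the 11 members hit in both. Eif2s3y on the Y chromosome, with 38.6 kb the longest member without a peak, and Eif2a, with 31.7 kb, had none in either series; the lists hold only 3 and 2 peaks on the Y chromosome in all. Eif2s2, the beta subunit gene, had none either.

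Among the 5 genes of the exchange factor eIF2B, only Eif2b3 was hit, in both series, with 1 peak of 603 bp (0.894%) in series 1 and 1 of 224 bp (0.332%) in series 2, each with a score of 21. Eif2b3 is 67.5 kb long and the other 4 are short, so the group's median length was 8.92 kb. This 1 of 5 stands beside 16.3% of all protein-coding genes for series 1, 19.5% for series 2 and 8.42% for both. Both series hit 23.1% of all protein-coding genes of 40 kb and over, the class of Eif2b3, but only 0.391% of those under 10 kb.

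The Eif4 genes were grouped by symbol alone and include those of the cap-binding and unwinding machinery. Of the 17, 9 had a peak in either series (52.9%), against 27.4% of all protein-coding genes. Each series hit 5 (29.4%), against 16.3% and 19.5% of all, and both hit 1 (5.88%), against 8.42%. Of the 9, 8 were hit in 1 series only (88.9%), as were 69.2% of all protein-coding genes with a peak. The gene hit in both was Eif4e2, which encodes a cap-binding protein that represses rather than drives initiation, on chromosome 1 from 87213911 to 87240488. It had 1 peak over 1.32% of its span in series 1 and 3 over 7.68% in series 2, one of them 1578 bp wide, a mean of 4.50% ± 4.49 (SD, n = 2). Eif4e, the cap-binding subunit of eIF4F itself, had no peak in 33.5 kb.

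The 3 Eif4g genes encode the scaffold of eIF4F and its relatives, and each was hit in 1 series only. Beside this and the counts below, 27.4% of all protein-coding genes were hit in either series and 8.42% in both. Of all protein-coding genes with a peak, 69.2% were hit in 1 series only. Eif4g1 had 2 peaks in series 2 over 4.14% of its span, one of which had a score of 105, above 99.7% of that list and the highest of any peak in the family. Eif4g2 had 1 in series 1 with a score of 37, the family's highest there, whose midpoint lay 0.130 kb inside the lower-coordinate end of the gene. Eif4g3, the longest member at 215 kb, had 2 in series 1 over 1.08%. Of the genes with an Eif4a symbol, Eif4a2 and Eif4a3 had 1 peak each in series 2, over 6.14% and 9.53%. Eif4a1 and Eif4a3l1 had none. The symbol alone places Eif4a3 among the initiation helicase genes here. Part of the Eif4a2 peak also covers an annotated small nucleolar RNA gene within that host gene. Eif4b had 3.03% in series 1, Eif4e3 0.716% in series 1 and Eif4enif1 0.518% in series 2, and none of the 3 Eif4ebp genes, whose products hold back the cap-binding protein, had a peak.

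In the remaining groups, Eif5b alone was hit. The product of Eif5b joins the ribosomal subunits, and the gene lies on chromosome 1 from 37998010 to 38055579. It had 2 peaks over 3.87% in series 1 and 2 over 0.769% in series 2, a mean of 2.32% ± 2.19 (SD, n = 2), and 1 peak of each series met over 6 bp. Its second series 2 peak had a score of 57, the only other family peak at 50 or more. The Eif1 genes, with a median length of 4.71 kb, and Eif6 had no peak, nor had Eif5, Eif5a and Eif5a2. All of these are shorter than 20 kb. Either series hit 3.80% of all protein-coding genes under 10 kb and 19.3% of those of 10 to 20 kb, so a lack of peaks was common at such lengths. Eif5b is 57.6 kb long, and both series hit 23.1% of all protein-coding genes of 40 kb and over.

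Along the members of known strand, peaks were most often centred in the middle part. The strand was known for the 44 members with a start window, of which 22 had a peak, and Eif1a, Eif2b3, Eif3e, Eif3h, Eif3i, Eif3j2, Eif4e1b, Eif4e3, Eif4ebp1, Eif4ebp3, Eif4g2 and Eif6 were not matched. Each gene was divided into 3 equal parts from its 5′ to its 3′ end. In series 1, 4 of 20 peaks had their midpoint in the first part, 9 in the middle and 7 in the last, where all protein-coding genes of known strand gave 22.2%, 34.7% and 43.1% of 4138 peaks. In series 2 the counts were 7, 14 and 7 of 28, where all such genes gave 23.8%, 35.2% and 40.9% of 5204 peaks. The peaks left out, in Eif2b3, Eif3e, Eif3h, Eif4e3 and Eif4g2, were all centred outside the middle part, whichever way these genes run. With them counted, the middle part need not hold the most peaks in series 1. Median places were 51.7% and 53.7% of the way to the 3′ end for members of known strand, and 60.9% and 58.9% for all such genes. Among members of known strand, the peak nearest to a start was that of Eif4a3, centred 1.84 kb into the gene.

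**Figure D3:**
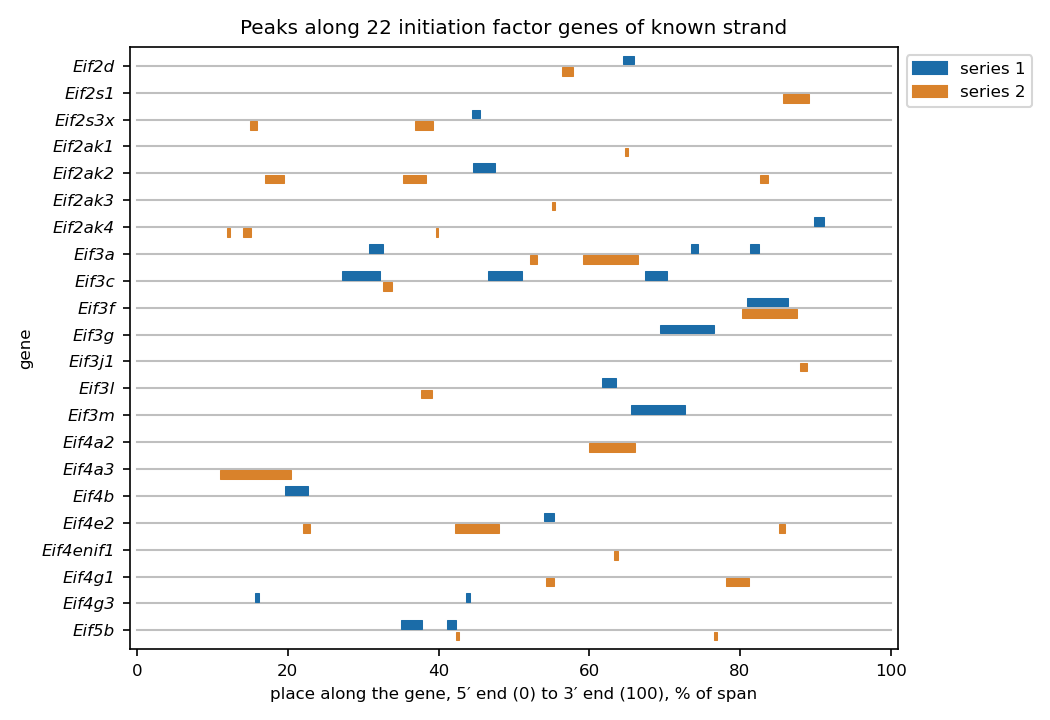
H3K36me3 peaks of series 1 (blue, above the line) and series 2 (orange, below the line) along the 22 initiation factor genes that have a peak and a known strand, scaled from the 5′ end (0) to the 3′ end (100) of each gene (x axis, percent of span). Peaks are drawn at their width, and those of Eif3f overlap while most others lie apart.

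The series seldom marked the same bases. Of the 11 members hit in both, 2 (18.2%), Eif3f and Eif5b, had bases under peaks of both series, and among the 1842 protein-coding genes hit in both the share was 17.6%. In Eif3c the nearest peaks missed each other by 78 bp. In Eif4e2, Eif2d, Eif2ak2, Eif3a, Eif2b3 and Eif2s3x the smallest gaps lay between 1.24 and 2.27 kb, in Eif3l the gap was 4.33 kb, and in Eif2ak4 it was 43.2 kb.

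Family peaks of series 2 were wider at the median than that list's peaks in all protein-coding genes. The authors' score is a whole number per peak that ranks peaks within 1 list, and its lowest value was 10 in both. Of 31 family peaks in series 2, 18 (58.1%) were at least 250 bp wide, against 29.6% of that list's peaks in all protein-coding genes, and the medians were 310 and 223 bp. The median scores of both sets were equal, and 8 of the 31 (25.8%) reached a score of 20, against 36.5% of peaks in all protein-coding genes, while 2 (6.45%) reached 50, against 2.63%. In series 1 the 23 family peaks had a median width of 567 bp, against 523 bp, and again the same median score. None of these 23 reached a score of 50, against 6.49%.

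**Figure D4:**
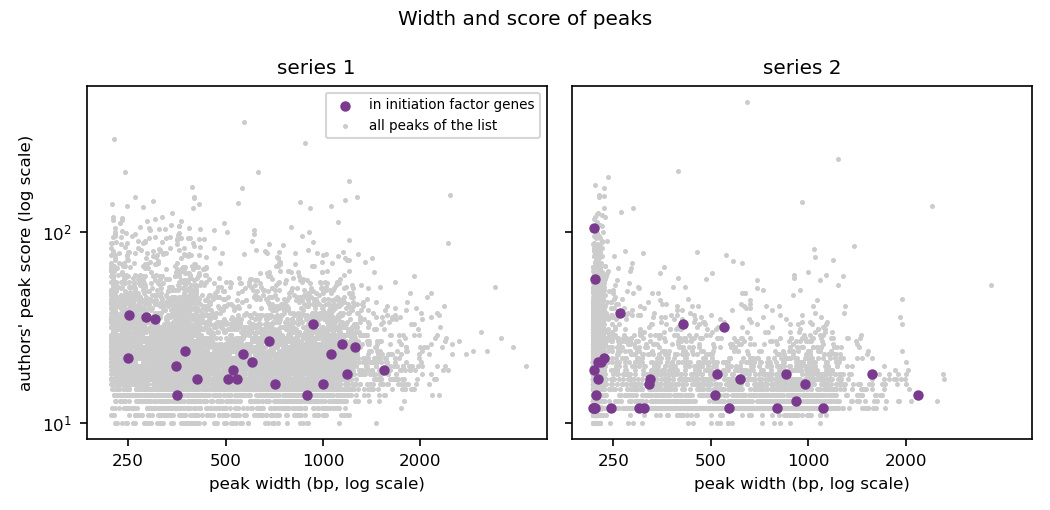
Width (x axis, bp, log scale) and authors' score (y axis, log scale) of each peak of series 1 and series 2, with peaks in initiation factor genes in purple over all peaks of the list in grey. Family peaks of series 2 extend to widths of 2177 bp at scores near the floor, and 2 narrow ones stand at 105 and 57.

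The 2 members that both series still hit at a score of at least 20 were Eif5b and Eif2b3. In single series at that score, 12 members were hit in series 1 (21.4%), against 10.9% of all, and 8 in series 2 (14.3%), against 9.02%. Requiring 100 bp or the peak midpoint kept 11 members (19.6%), against 8.41% and 8.39% of all, and spans extended by 1000 bp also gave 11, against 8.60%. Peaks of at least 250 bp gave 8 (14.3%), against 3.84%. Among genes with no coding neighbour within 5 kb, 3 of 18 members (16.7%) were hit in both, against 8.46%, and with a score of at least 50 there were 0 members, against 0.0868%. Of the 56 members 13 overlap another protein-coding gene, but none of the 54 family peaks lay in such a gene.

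**Figure D5:**
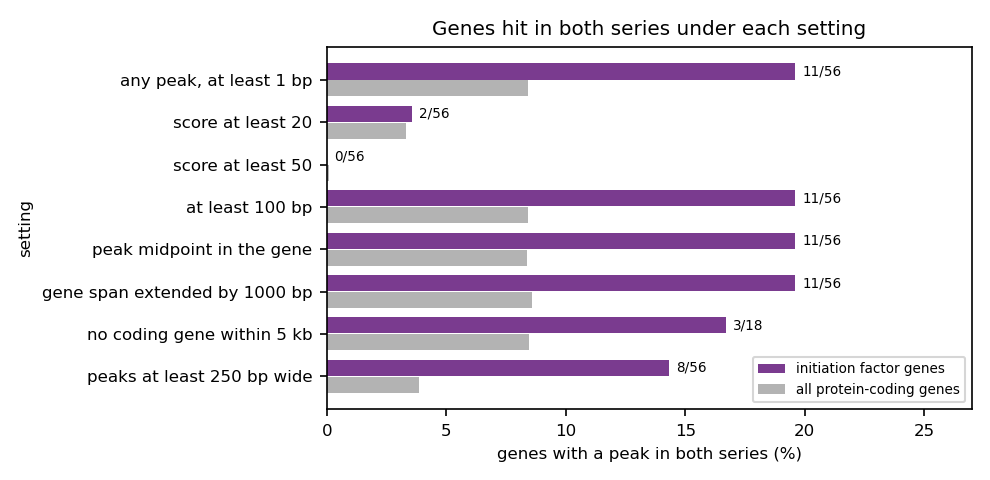
Share of genes hit in both series (x axis, percent) under each way of counting (y axis), for initiation factor genes (purple, with counts) and all protein-coding genes (grey). The purple bar falls to the grey one at a score of at least 20, where 2 of 56 members remain, and is above it in the settings that keep all scores.

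Partners and regulators of initiation that the symbol rule does not take were counted in the same way, as was a list of elongation and termination genes. Of 32 partners, series 1 hit 10 (31.2%), series 2 hit 13 (40.6%) and both hit 7 (21.9%), against 16.3%, 19.5% and 8.42% of all protein-coding genes. The partners were longer than the family at the median. The 7 were Dhx29, a scanning helicase, covered over 4.11% in series 1 and 5.00% in series 2, then, in the same order, Denr with 2.96% and 1.04%, Gigyf2, a partner of Eif4e2, with 2.13% and 0.966%, Mknk1, a kinase of Eif4e, with 1.33% and 1.71%, Pdcd4, an inhibitor of Eif4a, with 1.45% and 0.970%, Bzw2 with 1.54% and 0.351%, and Mtor, the kinase upstream of the Eif4ebp proteins, with 0.332% and 0.852%. Of the stress-response genes around eIF2, Dnajc3, an inhibitor of PERK, had a series 1 peak over 1.55% of its length and Nck1 a series 2 peak over 0.424%. Atf4, Ddit3, Ppp1r15a, Ppp1r15b, Trib3, Gcn1 and Impact had none, and all of these but Gcn1 and Impact are shorter than 10 kb, a length at which 3.80% of all protein-coding genes had a peak in either series. The list of elongation and termination genes was taken by symbol, as Eef and a digit, with Etf1, Gspt1 and Gspt2. It therefore also holds genes for enzymes that modify elongation factors, and Eef1akmt2, Eef1akmt3 and Eef2k were among those hit. Of its 18 genes, series 1 hit 5 (27.8%), series 2 hit 3 (16.7%) and both hit 2 (11.1%), beside those same shares of all protein-coding genes. The 2 were Eef2k, the kinase of elongation factor 2, with 1.41% and 4.66%, and Etf1, the release factor, with 1.65% and 0.780%. Their median length was 14.1 kb, below that of the family, and no test compared the lists.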

How the data were processed

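H3K36me3 ChIP and input libraries of sorted mTEClo were sequenced by the submitters. The submitters' processing notes name Bowtie2, SAMtools and MACS2 with build mm10 but no versions or settings. For each ChIP library the authors deposited the place and name of each broad peak with a score in whole numbers, and per the peak names in the files series 1 was called against 2 inputs and series 2 against 1. Scores rank peaks within a list, and their meaning is not stated. Lists were called per library and not on pooled samples.

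Gene spans came from a RefSeq table on GRCm38.p6, the assembly of mm10, without exons. Strand and start windows came from a second RefSeq table. Peaks were intersected with spans, counting 1 bp or more, with Python 3.11.15, numpy 2.4.6 and pandas 2.3.3; the overlap code was tested on simulated data. No test was run, because each series holds 1 ChIP library. Members, lists and motifs were chosen with earlier results of these data known. Genes named were, by rule, those hit in both series, the 5 best covered and 3 best scoring per series, the 2 best covered per complex, all kinases and the 3 longest without a peak. Other members are named to account for the family, after their values were seen. Alternatives were scores of at least 20 and 50, 100 bp, peak midpoint, spans extended by 1000 bp, genes without a coding neighbour within 5 kb, peaks of at least 250 bp, and each library left out.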

Additional observations from a re-analysis of the deposited data

How the results depend on the processing

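Counts of initiation factor genes hit in series 1, series 2, both or either stayed within 1.5 times of the values above when at least 100 bp were required, when the peak midpoint had to lie in the gene, when spans were extended by 1000 bp and with peaks of at least 250 bp. With a score of at least 20 they were 8 in series 2 and 2 in both, with shares of bases of 0.535% and 0.156% in series 1 and 2, against 0.179% and 0.0698% over all protein-coding genes. With a score of at least 50 they were 0 in series 1, against 1.49% of all protein-coding genes, 2 in series 2 (3.57%), against 0.763%, 0 in both and 2 in either (3.57%), against 2.16%, with shares of 0 and 0.0290%, against 0.0167% and 0.00493%. Among the 18 members with no coding gene within 5 kb, fewer genes by construction, they were 5, 6, 3 and 8 (27.8%, 33.3%, 16.7% and 44.4%), against 15.6%, 18.8%, 8.46% and 25.9% of all such genes, and the shares were 0.581% and 0.345%, against 0.262% and 0.185%. Extended spans gave 0.991% and 1.01%, against 0.309% and 0.221% over all protein-coding genes. Peaks of at least 250 bp gave 0.871% in series 2, against 0.128%. Leaving out 1 library makes both and either the count of the other, 17 to 21 in each case. Other causes were not tested. Depth is unknown. No paired analysis was possible because no test was run and the input libraries have no peak list of their own.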
